A study of Mus musculus with 6 samples.

Results

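The genes described here are 41 genes of the synaptic vesicle and its release machinery. They were taken as a fixed list of symbols, without a cut-off on any measured value but with earlier results of these data known. All 41 were found among the 21887 protein-coding genes of the RefSeq table for GRCm38.p6. For each gene, accessible regions were counted within 1 kb of a gene end, inside the gene, or nearest to it by gene end within 100 kb. By role the list holds 6 synaptotagmins treated as calcium sensors, 3 other synaptotagmins, 4 SNARE proteins, 3 complexins, 8 active zone and priming proteins, 5 vesicle proteins, 4 genes of the Rab3 group, 4 endocytosis genes and 4 adhesion genes.

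Open chromatin was profiled by ATAC-seq in E14.5 retinas (a stage in embryonic days) of the mouse strain C57BL/6. In this assay the Tn5 transposase inserts sequencing adapters where DNA is accessible. There were 3 libraries labelled Atoh7 SE/SE, from embryos mutant for the shadow enhancer of Atoh7 (SE/SE below), and 3 labelled Atoh7 +/+ (wild type, WT below). Atoh7 is a transcription factor gene needed for retinal ganglion cells to form, and a shadow enhancer is an additional element whose activity overlaps that of a gene's main enhancer. Each library came from the retinal pair of 1 animal, with about 100000 cells transposed and the equivalent of 50000 cells amplified. The SE/SE libraries had 15, 16 and 16 PCR cycles and the WT libraries 17, 18 and 19, without a label that gives the cycles of each single library. The comparison asks how open chromatin differs between mutant and wild-type retinas.

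Neurotransmitter release begins when a vesicle is docked and primed at the active zone by RIM, Munc13, Bassoon and Piccolo proteins. SNARE proteins on the vesicle and the plasma membrane then pull the membranes together, complexins hold and assist that complex, and a calcium-binding synaptotagmin triggers fusion. Vesicle membrane is afterwards recovered by endocytosis, and neurexins and neuroligins join the membranes on either side of the synapse. In the retina these genes are used by ganglion cells, amacrine cells, bipolar cells and photoreceptors, of which ganglion cells are among the earliest to be born.

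The SE/SE libraries had 39115, 42722 and 44242 peaks and the WT libraries 31340, 34797 and 27873, and their read depth is unknown. The joint peak lists, 1 per genotype, held 120772 peaks for SE/SE and 104991 for WT. The fewest peaks in an SE/SE library thus exceeded the most in a WT library, and PCR cycles separate the genotypes in the same way, so genotype, list length and amplification cannot be told apart. Of 10 neural retina marker genes, 9 or 10 had a gene-end peak in every library of both genotypes. Mesenchyme markers had one for 5 of 5 genes in each SE/SE library and for 4, 5 and 4 in WT 1, 2 and 3. Endothelial markers had one for 2 of 5 genes in each SE/SE library and for 1 in each WT library, and Cdh5, Pecam1 and Tek had none in any library. Counts were equal between genotypes for pigment epithelium (1 of 5, with none at Tyr, Mlana, Rpe65 or Best1), lens (2 of 5, with none at Cryaa, Cryab or Bfsp2) and microglia or blood (0 of 5). The part of these other cell types in the results below was not tested. In bulk tissue, fewer cells of a type and less accessible chromatin per cell cannot be told apart.

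Start-site windows of 300 bases, from 250 before to 50 from a listed transcript start, were available from RefSeq (GRCm38.p6) for 32 of the 41 genes, with 47 starts in all. Those below are shown because they cover the range of accessibility at synaptic gene starts. The printed starts of Syt1 and Unc13a and the last listed start of Nrxn3 lay in a peak in 6 of 6 libraries. The first listed start of Nrxn3 lay in a peak in 0 libraries, the start of Sv2a in 1 and that of Cplx3 in 2. Capitals mark GC boxes (GGGCGG or its complement), the E-box CAGCTG and, in Unc13a, both parts of the RE1 element (complements of GGACAGC and TTCAGCACC). Neither Nrxn3 window holds any of these.
Syt1 chr10:109010926-109011225, minus strand: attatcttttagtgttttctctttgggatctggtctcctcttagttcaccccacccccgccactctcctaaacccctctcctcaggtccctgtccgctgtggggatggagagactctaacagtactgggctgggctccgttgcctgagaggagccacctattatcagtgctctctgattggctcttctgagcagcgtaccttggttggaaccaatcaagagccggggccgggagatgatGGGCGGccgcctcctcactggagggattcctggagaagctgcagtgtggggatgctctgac
Unc13a chr8:71671708-71672007, minus strand: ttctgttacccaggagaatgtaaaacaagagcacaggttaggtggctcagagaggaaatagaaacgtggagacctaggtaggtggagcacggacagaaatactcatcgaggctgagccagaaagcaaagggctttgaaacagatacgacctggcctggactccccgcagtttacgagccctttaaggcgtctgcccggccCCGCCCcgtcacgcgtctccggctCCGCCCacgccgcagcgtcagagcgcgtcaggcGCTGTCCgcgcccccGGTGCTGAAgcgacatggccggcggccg
Nrxn3 chr12:89812233-89812532, plus strand: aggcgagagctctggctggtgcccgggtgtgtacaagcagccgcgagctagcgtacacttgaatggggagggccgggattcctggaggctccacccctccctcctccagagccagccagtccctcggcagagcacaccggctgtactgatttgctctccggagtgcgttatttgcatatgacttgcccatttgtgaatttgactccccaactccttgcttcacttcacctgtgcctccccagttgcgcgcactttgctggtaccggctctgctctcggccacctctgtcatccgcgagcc
Nrxn3 chr12:88794254-88794553, plus strand: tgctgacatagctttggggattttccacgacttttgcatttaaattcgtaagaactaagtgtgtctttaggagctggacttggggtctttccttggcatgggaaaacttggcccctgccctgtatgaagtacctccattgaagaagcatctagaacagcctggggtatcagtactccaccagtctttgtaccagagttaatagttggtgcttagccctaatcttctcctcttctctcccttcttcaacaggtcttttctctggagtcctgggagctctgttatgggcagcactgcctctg
Sv2a chr3:96180977-96181276, plus strand: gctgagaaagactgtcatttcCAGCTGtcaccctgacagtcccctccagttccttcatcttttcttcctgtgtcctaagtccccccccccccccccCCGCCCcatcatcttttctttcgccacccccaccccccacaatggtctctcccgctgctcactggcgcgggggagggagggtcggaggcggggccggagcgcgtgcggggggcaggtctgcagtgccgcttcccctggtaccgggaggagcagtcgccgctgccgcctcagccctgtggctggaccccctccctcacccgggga
Cplx3 chr9:57606232-57606531, minus strand: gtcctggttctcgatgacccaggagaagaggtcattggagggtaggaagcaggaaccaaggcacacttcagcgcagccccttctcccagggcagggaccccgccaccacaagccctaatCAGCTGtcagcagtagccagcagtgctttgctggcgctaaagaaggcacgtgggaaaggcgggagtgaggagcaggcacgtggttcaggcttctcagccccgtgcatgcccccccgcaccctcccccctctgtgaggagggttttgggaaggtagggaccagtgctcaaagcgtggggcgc

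Most synaptic genes were accessible at a gene end in both genotypes. Of the 41 genes, a peak lay within 1 kb of an end for 37, 38 and 39 in SE/SE 1, 2 and 3 and for 37, 38 and 34 in WT 1, 2 and 3. The means were 38.0 ± 1.0 genes in SE/SE and 36.3 ± 2.08 in WT (SD, n = 3 each), or 92.7% and 88.6%. The libraries of the genotypes overlapped, and WT 3, the library with the fewest peaks, was the only one below 37. Without WT 3 the difference of means fell to 0.5 genes, against 1.67 with all 6 libraries. Over all 21887 protein-coding genes the share was 60.2 ± 0.553% in SE/SE and 57.1 ± 1.14% in WT (SD, n = 3 each). That difference of 3.01 percentage points had an exact two-sided permutation p = 0.1, the smallest that 3 against 3 libraries allow. At equal list length, with the 27873 strongest peaks of each library, the shares were 57.1% in SE/SE and 56.3% in WT, a difference of 0.862 percentage points (exact permutation p = 0.1). Among the 3567 coding genes at least as long as the median synaptic gene (70.3 kb), the mean share was 77.1% in SE/SE and 73.7% in WT.

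A gene-end peak was in all 6 libraries for 34 of the 41 genes (82.9%), against 55.6% of all coding genes and 71.7% of the long ones. It was in 1 to 5 libraries for Syt6, Syt4, Cplx1, Sv2a and Sv2b and in 0 for Syt3 and Unc13c. No synaptic gene had a gene-end peak in 3 SE/SE and 0 WT libraries, a pattern found for 0.864% of all coding genes. None had one in 3 WT and 0 SE/SE libraries, which was true of 0 genes in all (0%). Both joint lists had a gene-end peak for 40 of the 41 genes, Unc13c being the exception. For 31 of the 34 genes, a gene-end region with a peak in all 6 libraries had no end of another coding gene within 1 kb. The other 3 were Unc13b, Synj1 and Nlgn2.

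**Figure D1:**
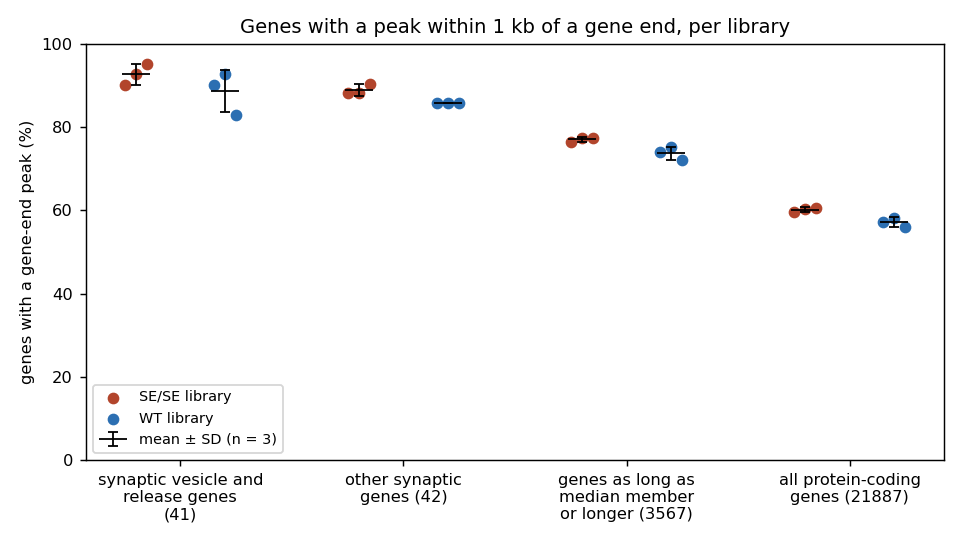
Percent of genes with a peak at most 1 kb from a gene end, for SE/SE libraries (red, left) and WT libraries (blue, right) in 4 gene sets; points are libraries and bars the mean ± SD (n = 3). The synaptic genes averaged 92.7% in SE/SE and 88.6% in WT, above the 60.2% and 57.1% of all protein-coding genes.

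Among the calcium-sensing synaptotagmins, Syt1, the fast sensor of release in many neurons, had by rank the most accessible gene end of the set. Syt1 (gene ID 20979) spans chr10:108497650-109010980 on the minus strand. Its start-site region (chr10:109010301-109012103), which holds the Syt1 window printed above, had authors' deposited signal values of 3349, 3808 and 3732 in SE/SE 1, 2 and 3 and 2461, 2742 and 2044 in WT 1, 2 and 3. These values are not scaled between libraries, so regions were compared by their percentile rank among the 24370 regions that all 6 libraries share. By that rank Syt1 stood at 98.6, 98.6 and 98.6 in SE/SE and at 98.3, 97.9 and 97.2 in WT, so the genotypes did not overlap but differed by under 1 point on average (0.80). The gene end of Syt7, a slow high-affinity sensor, ranked at 87.8, 89.1 and 88.4 in SE/SE and at 88.6, 84.5 and 86.9 in WT, with overlap. Syt2, a fast sensor like Syt1, was low, at 24.95, 17.0 and 20.6 in SE/SE and 16.2, 10.9 and 12.7 in WT. Its ranks did not overlap between genotypes. Syt5 was at 37.5, 37.9 and 41.6 in SE/SE and 36.0, 37.3 and 44.1 in WT.

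Syt6 and Syt3 lacked a constant gene-end peak. Syt6 had one in SE/SE 2 and 3, at percentiles 42.2 and 32.7 of those libraries' own peak lists by deposited signal value, and in WT 2, at percentile 26.7. Libraries of both genotypes thus had and lacked it. Own-list percentiles come from lists of unequal length and are given only as a description. Syt3 had no gene-end peak in any library, but its listed start lies further than 1 kb inside the gene and had a peak within 1 kb in all 6. Among the other synaptotagmins, Syt11 and Syt13 had a gene-end peak in all 6 libraries. Syt4 had one in SE/SE 1, 2 and 3, at own-list percentiles 47.0, 60.3 and 53.5, and in WT 1 and 2, at 19.7 and 38.5. Only WT 3 lacked it. Syt13 ranked low, at 20.2, 21.5 and 13.8 in SE/SE and 15.8, 14.8 and 14.8 in WT, with overlap.

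All 4 SNARE genes had a gene-end peak in 6 of 6 libraries. The end of Snap25, which encodes the plasma membrane SNARE with a pair of helices in the complex, ranked at 57.6, 56.7 and 53.8 in SE/SE and 59.1, 57.7 and 58.7 in WT. Vamp2, the main vesicle SNARE of the brain, ranked at 47.1, 49.6 and 49.2 in SE/SE and 52.5, 50.2 and 56.1 in WT. In both genes the SE/SE ranks lay below the WT ranks without overlap, with mean differences of −2.46 points for Snap25 and −4.31 for Vamp2. Stx1a and Vamp1 overlapped between genotypes.

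The complexins differed from each other. Cplx2 had a peak at a gene end in every library, ranking at 65.19, 77.4 and 73.5 in SE/SE and at 65.18, 61.5 and 63.4 in WT. The genotypes did not overlap, but SE/SE 1 and WT 1 were nearly equal. Cplx1 had a gene-end peak in SE/SE 1, 2 and 3, at own-list percentiles 28.9, 42.0 and 44.1, and in WT 1 and 2, at 31.0 and 33.5, and lacked it in WT 3. Cplx3, a complexin of ribbon synapses, had a gene-end peak in 6 of 6 libraries, but it lay at the 3′ end of the gene. At the start of Cplx3, in the window printed above, only SE/SE 1 and SE/SE 3 had a peak, at percentiles 7.3 and 1.3 of their lists, and no WT library had one. Both joint lists had a peak there.

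Active zone genes included several of the most accessible ends. Pclo, the Piccolo gene, ranked at 97.5, 97.1 and 97.2 in SE/SE and 97.7, 97.4 and 97.5 in WT, with overlap. Rims1, a scaffold that ties vesicles and calcium channels to the active zone, ranked at 94.5, 95.1 and 93.9 in SE/SE and 93.0, 91.9 and 91.0 in WT. Rims2, its paralog, ranked at 94.4, 96.0 and 95.9 in SE/SE and 85.8, 92.1 and 90.5 in WT. Both RIM genes were thus higher in each SE/SE library than in any WT library, by 2.53 points for Rims1 and 5.97 for Rims2.

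Among the Munc13 genes, which prime vesicles for fusion, Unc13a and Unc13b had a gene-end peak in all 6 libraries, and these ends ranked lower in SE/SE. The ranked Unc13b region stood at 79.7, 77.2 and 80.0 in SE/SE and 84.2, 82.4 and 82.3 in WT. That region also lies within 1 kb of an end of Fam214b. The listed start of Unc13b, further inside the gene, lay in a peak in all 6 libraries and was not ranked. Unc13a ranked at 47.9, 50.03 and 44.1 in SE/SE and 51.2, 52.2 and 52.2 in WT. Unc13c had no gene-end peak in any of the 8 lists. Its listed start, inside the longest gene span, had a peak in SE/SE 1, 2 and 3, at own-list percentiles 19.4, 25.1 and 34.0, and in WT 2, at 4.9. Next to it, the region chr9:73970759-73971308 had a peak in all 6 libraries, with deposited signal values of 894, 929 and 986 in SE/SE and 668, 776 and 474 in WT. Bsn, the Bassoon gene, had 1 region assigned to it, which was at its 5′ end and in 6 of 6 libraries.

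Of the vesicle proteins, Syn2 and Syn3, synapsins that tether vesicles in reserve, and Sv2c had a gene-end peak in 6 of 6 libraries. Syn2 ranked at 59.9, 63.3 and 61.8 in SE/SE and 57.3, 54.4 and 59.7 in WT, without overlap. Sv2b, a vesicle glycoprotein gene, had a gene-end peak in SE/SE 1, 2 and 3, at own-list percentiles 31.3, 47.7 and 46.0, and in WT 1 and 2, at 13.5 and 28.5, and lacked it in WT 3. Sv2a, the widely expressed member of its family in the adult brain, had a gene-end peak in the fewest libraries of the 3 Sv2 genes. Only SE/SE 3 had one, 109 bp wide and at percentile 13.0 of its list, while both joint lists had one.

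All 4 genes of the Rab3 group, all 4 endocytosis genes and all 4 adhesion genes had a gene-end peak in 6 of 6 libraries. Rph3a, a Rab3 effector, had the lowest mean rank of the 34 genes, at 14.7, 23.4 and 8.7 in SE/SE and 22.1, 17.7 and 11.1 in WT. Snap91, which encodes the clathrin adaptor AP180, ranked at 97.9, 98.1 and 98.0 in SE/SE and 96.7, 97.2 and 96.2 in WT. Dnm1, the neuronal dynamin that cuts vesicles from the membrane, ranked at 31.4, 27.2 and 29.1 in SE/SE and 40.5, 35.9 and 47.1 in WT. Snap91 was thus higher and Dnm1 lower in every SE/SE library, with mean differences of 1.33 and −11.9 points. Among the adhesion genes, Nlgn1, a neuroligin of excitatory synapses, ranked at 74.2, 79.7 and 77.6 in SE/SE and 66.6, 73.6 and 69.9 in WT. Nlgn2, its counterpart at inhibitory synapses, ranked at 92.2, 92.0 and 92.8 in SE/SE and 94.2, 93.8 and 94.2 in WT. The neuroligins thus lay on opposite sides, Nlgn1 higher and Nlgn2 lower in SE/SE, each without overlap. The ranked Nlgn2 region also covers an end of Tmem256, so its rank does not belong to Nlgn2 alone.

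**Figure D2:**
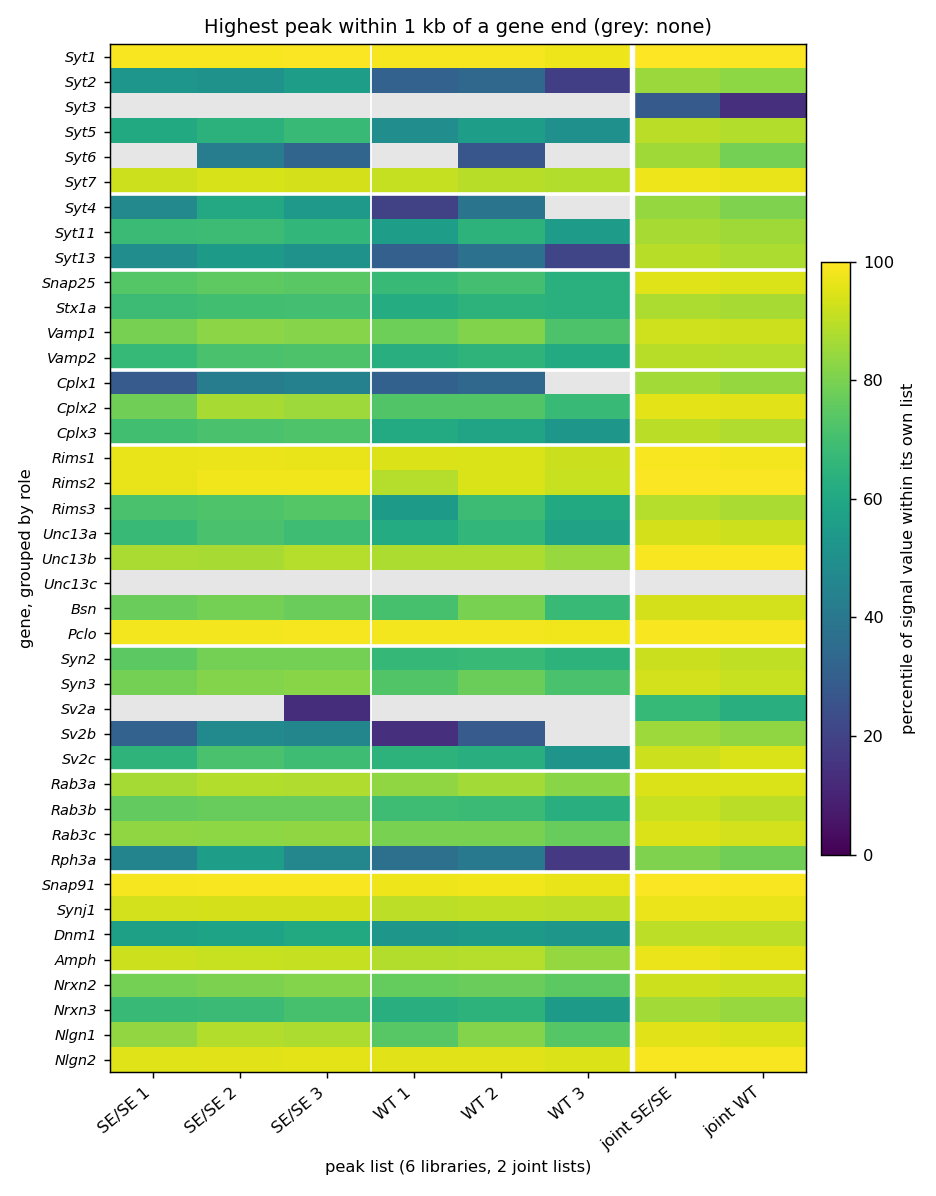
Percentile of the highest peak at most 1 kb from a gene end by deposited signal value within its own list (colour, grey where there is none), for the 41 genes by role (down) in 3 SE/SE libraries, 3 WT libraries and the joint lists (across). Grey cells of single libraries fall on Syt3, Syt6, Syt4, Cplx1, Unc13c, Sv2a and Sv2b, and joint lists are longer, so their percentiles are not set against those of libraries.

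Set side by side for the 34 genes, the gene-end ranks were mixed in direction. The SE/SE ranks all lay above the WT ranks for 8 genes (Cplx2, Syt2, Nlgn1, Rims2, Syn2, Rims1, Snap91 and Syt1), or 23.5%, against 12.1% of the 12254 genes so ranked. They all lay below for 8 genes (Dnm1, Unc13a, Vamp2, Unc13b, Nrxn2, Nrxn3, Snap25 and Nlgn2), or 23.5%, against 22.1% of all genes. No gene passed after Benjamini-Hochberg adjustment of exact permutation p-values over the 12254 genes, where the smallest adjusted p was 0.292, and none of the 34 had an unadjusted p under 0.05, since 3 against 3 cannot go below 0.1. The median difference was −0.180 points for the 34 genes and −0.563 for all, and 14 of the 34 moved by less than 2 points. The median rank was 67.4 for the synaptic genes, with a range of 16.3 to 98.2, and 72.3 for all genes. When regions were ranked by the bases covered instead of by signal value, the count of genes higher in SE/SE was 4, and that of genes lower was 9. The share over all genes was not taken under that ranking, so these counts are a description only.

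**Figure D3:**
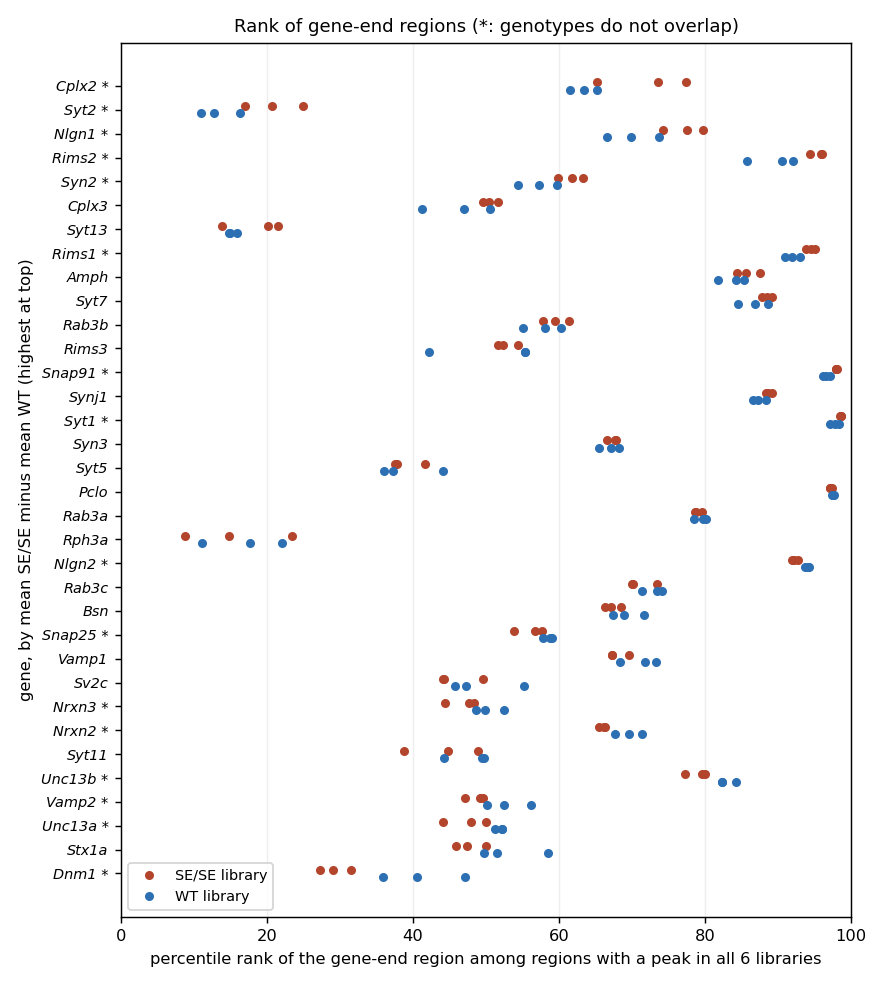
Percentile rank of the gene-end region among the 24370 regions that all 6 libraries share, for 34 genes ordered by mean SE/SE minus mean WT; red points are SE/SE libraries and blue points WT libraries. Stars mark the 8 genes wholly higher and the 8 wholly lower in SE/SE, from Cplx2 at the top to Dnm1 at the bottom.

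Where the strand and start are listed, gene-end peaks lay mostly at the start of the gene. Of 32 synaptic genes with a listed start, 24 had a peak at the 5′ end in 6 of 6 libraries, and 2 (Cplx3 and Synj1) at the 3′ end. The gene-end peak of Synj1, which encodes a vesicle phosphatase, lay at its 3′ end beside Cfap298, while its listed starts lay in a peak in all 6 libraries. With the listed start in place of the gene end, 30, 30 and 32 of the 32 genes had a peak within 1 kb in SE/SE 1, 2 and 3 and 28, 30 and 26 in WT 1, 2 and 3. All 6 libraries had one for 26 genes (81.2%), against 58.3% of the 17492 coding genes with a listed start. The remaining 6 genes (Syt6, Cplx1, Cplx3, Unc13c, Sv2a and Sv2b) had one in 1 to 5 libraries and 0 genes had none.

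Starts of the same gene differed in accessibility. Neurexin genes make long and short proteins from separate promoters. All 3 listed starts of Nrxn3 lie inside its longest span, and of these only that at 89812483 on chromosome 12 lay in a peak. Its peak was in all 6 libraries, at own-list percentiles 89.9, 92.2 and 90.7 in SE/SE and 88.7, 89.4 and 83.5 in WT. The starts at 88794504 and 88953390 lay in no peak of any of the 8 lists. The 5′ end of the Nrxn3 span, which is not a listed start, was accessible too. Its region, 88722701-88723015, had a peak in all 6 libraries and is the one ranked above. Own-list percentiles there were 67.6, 68.2 and 71.1 in SE/SE and 62.7, 64.6 and 54.4 in WT. Of the pair of Syn2 starts, that at 115134902 lay in a peak in 6 libraries and that at 115238994 in 0. The Syt1 start at 109010975 lay in a peak in 6 libraries and the start at 109009111 in 0. Both Syt2 starts lay in a peak in 6 libraries. For Nlgn1, the start at 26331909 lay in a peak in 6 libraries, and the internal start at 26153986 in SE/SE 1, 2 and 3 and WT 2.

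The base composition of the start windows went with their accessibility as in the rest of the genome. Counting a window as CpG-rich where its GC content was at least 50% and its CpG count at least 0.6 of that expected from its bases, 24 of the 47 synaptic windows were CpG-rich. Of these, 20 starts lay in a peak in all 6 libraries (83.3%), against 86.0% of the CpG-rich windows of all genes. Of the other 23, 6 did (26.1%), against 11.8% over all. The Syt1 window printed above is one of these 6 by its CpG ratio of 0.332, with a GC content of 56.7%. The covered and uncovered Nrxn3 windows had GC contents of 60.7% and 47.3% and CpG ratios of 0.588 and 0.119.

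The motifs searched, on both strands, were TTCAGCACC and GGACAGC (left and right parts of the RE1 element, bound by the repressor REST), TGACGTCA (the CRE), CAGCTG and CAGATG (E-boxes, the class of site that proneural factors such as Atoh7 bind), GGGCGG (the GC box) and TATAAA. The GC box was in 29 of the 47 synaptic windows (61.7%), against 35.7% of all 32851 windows, and in 21 of the 26 synaptic windows covered in 6 libraries, against 71.7% of all windows so covered. CAGCTG was in 16 windows (34.0%), against 16.3% of all, and CAGATG in 5 (10.6%), against 17.2%. Of the 26 synaptic windows covered in 6 libraries, 5 held CAGCTG, against 14.3% of all windows so covered. Of the 13 covered in 0 libraries, 5 held it, against 17.2% of all such windows. TATAAA was in 3 windows (6.38%), against 13.6%, and the CRE in 0, against 1.79%. The left RE1 part was in 2 windows (Unc13a and Nlgn1; 4.26%), against 0.371% of all, and the right part in 6 windows of Rph3a, Syt6 and Unc13a (12.8%), against 6.56%. Unc13a alone among the synaptic windows held both, at bases 7 to 13 and 22 to 30 from the start (counted with the start base as 0), with 8 bases between them. Both parts occurred together in 14 of all 32851 windows (0.0426%). Windows of the same gene can overlap and CAGCTG overlaps the right RE1 part in one Rph3a window, so these matches are a description of letters and not of bound sites.

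In all, the synaptic genes held 238 consensus regions, 200 inside the genes and 38 outside. A peak was present in 182, 215 and 218 of them in SE/SE 1, 2 and 3 and in 128, 152 and 119 in WT 1, 2 and 3. The means were 205 ± 19.98 regions in SE/SE and 133 ± 17.1 in WT (SD, n = 3 each), and every SE/SE library was above every WT library. The ratio of 1.54 stood beside 1.42 over all 46780 regions of the genome. At the gene ends, 51 regions had means of 45.3 in SE/SE and 39.0 in WT. The ratio was 1.16, against 1.12 for all regions within 1 kb of a gene end. The 187 regions away from the ends had means of 160 in SE/SE and 94.0 in WT, a ratio of 1.70, against 1.65 for all regions over 1 kb from a gene end. With the same number of peaks taken from each library, 27873, the strongest first, the counts were 125, 127 and 130 in SE/SE and 116, 119 and 119 in WT, so the mean difference fell to 9.33 regions, against 72.0 with the full lists.

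All 6 libraries shared 110 of the 238 regions (46.2%), against 52.1% of all regions. A peak in 3 SE/SE and 0 WT libraries was found at 23 regions (9.66%), against 8.23% of all regions. The reverse, 3 WT and 0 SE/SE, was found at 0, against 0.0321%. The share of SE/SE-only regions was thus close to that of the genome. None of the 23 was at a gene end, where 36 of 51 regions (70.6%) were in all 6 libraries. Over all regions within 1 kb of a gene end, 2.86% were SE/SE-only and 80.6% were in all 6 libraries. Away from the ends the 23 were 12.3% of 187 regions, against 10.6% of all regions over 1 kb from a gene end. All 23 overlapped a peak in both joint lists, the WT one included. At 32311926-32312043 in Dnm1, 26106264-26106356 in Nlgn1 and 108832388-108832530 in Syt1, that joint WT peak also spanned a neighbouring region in all 6 libraries. In single SE/SE libraries the 23 were weak peaks, with a median own-list percentile of 17.1, against 18.9 for all SE/SE-only regions, and a maximum of 51.7. At equal list length the count was 3 of 142 synaptic regions (2.11%), against 1.38% of all 31360 regions. With the full lists, leaving out SE/SE 1 or WT 2 raised the count to 40 or 42.

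**Figure D4:**
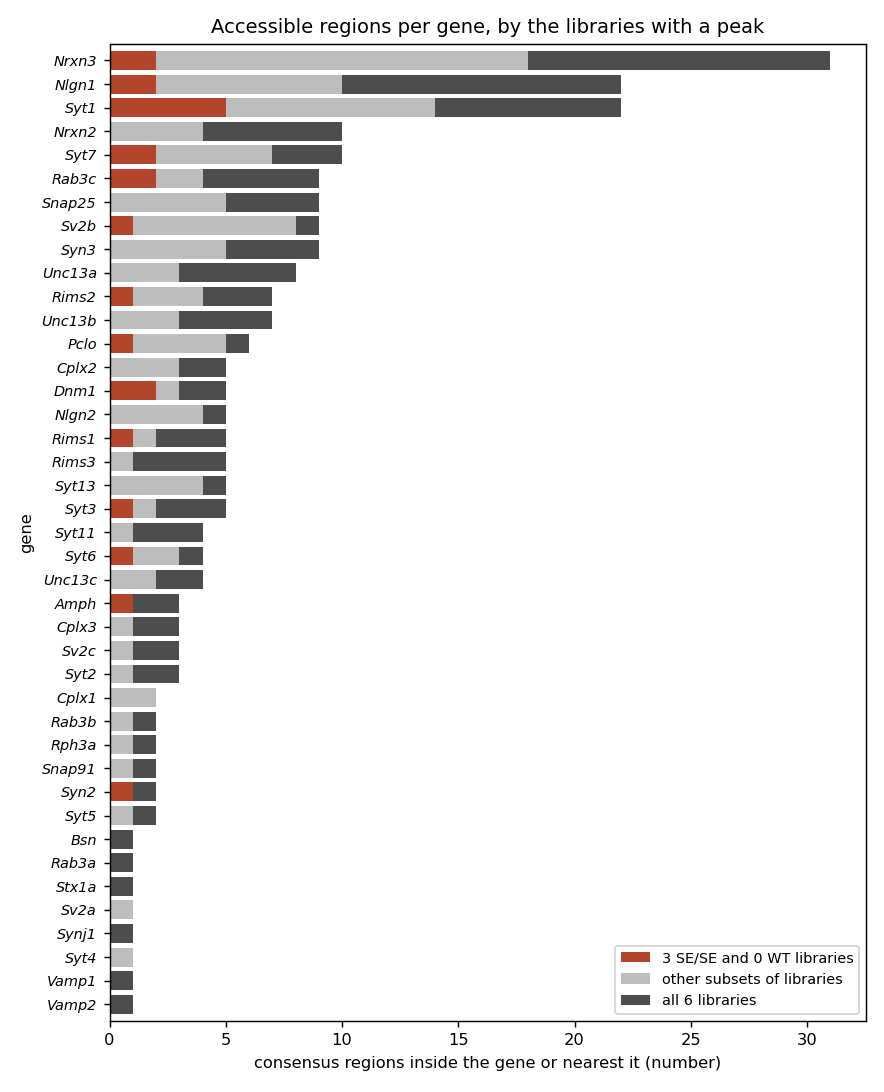
Number of consensus regions of each of the 41 genes (bar length), split into regions with a peak in 3 SE/SE and 0 WT libraries (red), in other subsets of libraries (light grey) and in all 6 (dark grey). Nrxn3 has 31 regions and Syt1 and Nlgn1 22 each, and the red segments sum to 23 regions over 14 genes.

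The number of regions ran from 1 to 31 per gene, with a median of 4. Nrxn3, at 1612 kb the longest of the genes, had 31, of which 23, 28 and 26 had a peak in SE/SE 1, 2 and 3 and 14, 19 and 15 in WT 1, 2 and 3. Nlgn1 had 22, with 16, 19 and 21 in SE/SE and 13, 15 and 12 in WT. Syt1 also had 22, with 17, 21 and 21 in SE/SE and 9, 11 and 8 in WT. In all 3 genes each SE/SE library had more regions than any WT library. The same held over all 46780 regions, with 37416, 41955 and 43584 in SE/SE and 28590, 32550 and 25403 in WT. By role, the calcium sensors had 41.7 ± 4.93 regions with a peak in SE/SE and 22.3 ± 2.52 in WT (SD, n = 3 each). Of their 46 regions 9 were SE/SE-only (19.6%), 5 of them in Syt1, against 8.23% of all regions. The adhesion genes had 56.0 ± 6.08 in SE/SE and 38.0 ± 5.20 in WT, with 4 of 68 SE/SE-only. The SNARE genes had 10.7 ± 1.53 in SE/SE and 7.67 ± 0.577 in WT, and 0 of their 12 regions were SE/SE-only. Complexins and the other synaptotagmins also had 0, of 10 regions each. The endocytosis genes had 3 of 11 (27.3%), the Rab3 group 2 of 14, the active zone genes 3 of 43 and the vesicle proteins 2 of 24.

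The SE/SE-only regions fell in 14 genes. Syt1 had 5, Syt7, Dnm1, Rab3c, Nrxn3 and Nlgn1 had 2 each, and Syt3, Syt6, Rims1, Rims2, Pclo, Syn2, Sv2b and Amph had 1 each. Of the 23, 19 lay inside the gene. The strongest was chr10:108525482-108525916 inside Syt1, 27832 bp from the gene's 3′ end, with own-list percentiles of 33.8, 51.7 and 44.6 in SE/SE 1, 2 and 3 and no peak in WT. It was the only one of the 23 that remained SE/SE-only at equal list length. The other 2 regions that were SE/SE-only at equal length lay inside Snap25 (chr2:136745046-136745247) and Nlgn1 (chr3:26175427-26175688), and in the full lists some WT libraries had a peak there.

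At Syt1 most of the accessible sites outside the start lay toward the 3′ end of the gene or beyond it. Others lay inside the gene, at 74.7 to 358 kb from its 5′ end. Of the 22 Syt1 regions, 8 had a peak in all 6 libraries. In the joint SE/SE list, the SE/SE-only region above lay in a peak of 2136 bp (108523829-108525964) that also spanned the neighbouring region in all 6 libraries, 108524158-108525028, 454 bp away. In the joint WT list it lay in a separate peak of 636 bp. Outside the gene, 17751 bp from its 3′ end, chr10:108479748-108479899 had own-list percentiles of 11.5, 23.5 and 19.5 in SE/SE and no WT library peak, and lay 155 bp from a region in all 6 libraries. The other 3 were at 108558914-108559056, 108765714-108765876 and 108832388-108832530, the last 267 bp from a region in all 6. So 3 of the 5 Syt1 regions lay within 1 kb of a region shared by all libraries. Over all 23 this was true of 5 (21.7%), against 13.2% of all SE/SE-only regions, the other 2 being in Dnm1 and Nlgn1. Syt1 and Syn3 are on chromosome 10, as is Atoh7.

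**Figure D5:**
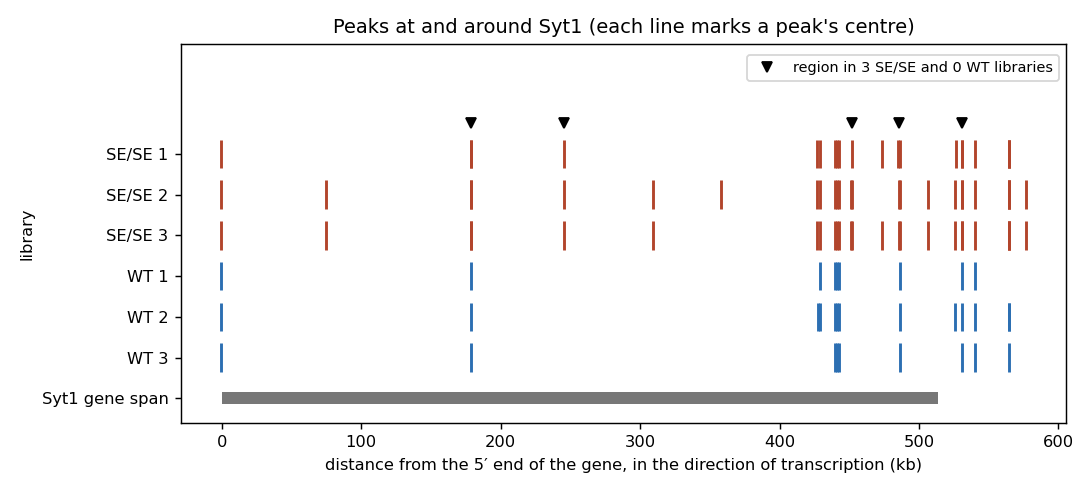
Peaks of each library at Syt1 and up to 100 kb around it, drawn at their centres by distance in kb from the 5′ end of the gene; SE/SE libraries are the upper 3 rows (red) and WT libraries the lower 3 (blue), with the gene span in grey. Triangles mark the 5 regions with a peak in 3 SE/SE and 0 WT libraries, and the peak at the start is in all 6.

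By mean own-list percentile in SE/SE, the SE/SE-only regions of the other genes were below the strongest Syt1 region, at 43.4. The remaining Syt1 regions had means of 18.1, 8.79, 19.2 and 20.4, and some regions of other genes were above these. The Rims1 region chr1:22596280-22596471 had percentiles of 27.4, 32.9 and 38.9 in SE/SE 1, 2 and 3. The Amph region chr13:19219889-19220044 had 28.9, 30.7 and 19.3. Nrxn3 had an SE/SE-only region at chr12:89282581-89282917, with own-list percentiles of 23.0, 35.2 and 44.9 in SE/SE 1, 2 and 3, and another at 89505237-89505400, with 3.0, 1.5 and 25.7. The Syt6 region chr3:103550273-103550621, outside the gene, had 17.1, 33.7 and 36.8. The Pclo region chr5:14834247-14834608 was nearly absent from SE/SE 1, with a deposited signal value of 20.03, close to the lowest of 20 in that list, and had 131 and 97.7 in SE/SE 2 and 3. The Rims2 region chr15:39711526-39711757 had percentiles of 7.1, 13.1 and 35.2, and the Sv2b region chr7:75295580-75295762 had 7.6, 17.7 and 24.8. In Dnm1, Rab3c, Syt7 and Nlgn1 none of the SE/SE-only regions exceeded percentile 26.8 in any library. SE/SE 1, which has the shortest of the SE/SE lists, gave the lowest percentile at each of the Nrxn3, Syt6, Pclo, Rims2 and Sv2b regions named here except the second one of Nrxn3.

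A further list of 42 synaptic genes, chosen for the same pathway, gave similar counts at gene ends. A gene-end peak was present for 37, 37 and 38 of them in SE/SE 1, 2 and 3 and for 36, 36 and 36 in WT 1, 2 and 3. It was in all 6 libraries for 36 genes (85.7%), among them Syp, the synaptophysin gene. Rab27b, a small GTPase gene of secretory vesicles, was the only one with a gene-end peak in 3 SE/SE and 0 WT libraries, against 0.864% of all coding genes, and both joint lists had it. Syt12 had one in 1 SE/SE library only. Syngr3, Stx3, Nlgn3 and Cplx4 had none in any library, and for Stx3 the listed start had a peak within 1 kb in all 6.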

How the data were processed

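Retinal ATAC-seq libraries of 3 SE/SE and 3 wild-type embryos were analysed from the authors' deposited peak lists, 1 per library and 1 joint list per genotype. The sources used here do not give how libraries were joined, reads shifted for the Tn5 cut, duplicates removed or libraries scaled. Per the submitters' processing notes, cutadapt, BWA, Genrich 0.5, bedtools 2.27.0, limma and GRCm38 (mm10) were used, with no role or order. Peaks carry the authors' deposited score, −log10 p-value and signal value. The authors' deposited signal value starts at 20 in every list and was used to rank peaks within a library. The deposited score and −log10 values were not used further. Precision is limited by the unknown read depth, by the numbers of peaks and by the 3 libraries per genotype.

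Peaks sharing at least 1 bp over the 6 libraries were merged into consensus regions, and a library had a region if its peak overlapped it. Gene spans came from the RefSeq table (GRCm38.p6), which gives no strand, so both ends of the longest span were used, and listed starts and strands came from its promoter table. A start far inside the span is missed at the gene end. Library values were compared by an exact two-sided permutation test with 20 assignments, with Benjamini-Hochberg adjustment over all genes ranked. Genotypes were also described by whether their libraries overlap.

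The genes, the other lists and the tests were chosen with earlier results of these data known. The rule for named genes took those with a gene-end peak in 1 to 5 libraries, up to 10 with the most regions in 1 genotype only, the 5 highest and 5 lowest gene-end ranks, up to 6 non-overlapping genes with the largest rank differences and, of the other synaptic genes, those with a gene end in 1 genotype only. Genes outside it were named after their values were seen. Alternatives covered the windows, merging, overlap, signal minimum, list length, ranking and each library left out. Python 3.11.15, numpy 2.4.6, pandas 2.3.3, scipy 1.17.1 and matplotlib 3.10.9 were used, and the calculations were tested on simulated data.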

Additional observations from a re-analysis of the deposited data

How the results depend on the processing

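Of 99 alternative values of the results, 94 kept their direction and their side of the test's threshold or, without a test, stayed within the spread between replicates or close to the count reported. The test could not pass the threshold of 0.05 with so few libraries under any choice, so its side was fixed in advance. Counts that were 0 throughout are also among the 94. That number is thus a description and not a measure of how robust the results are. At equal list length, the difference in the share of all genes was 0.862 percentage points, against 3.01 with the full lists, the difference in synaptic regions with a peak was 9.33 and the count of SE/SE-only synaptic regions was 3, against 72.0 and 23 with the full lists. Fewer peaks of the longer SE/SE lists enter under that choice. Ranking gene-end regions by covered bases gave 4 genes higher in SE/SE, against 8, and the cause was not tested. With 1 library left out in turn, SE/SE-only synaptic regions numbered 25 to 42, as fewer libraries must then share or lack a peak. They numbered 40 without SE/SE 1, the shortest SE/SE list, and 42 without WT 2, the longest WT list. Leaving out any other library gave 25 to 27, and the cause of this gap was not tested. The difference in synaptic regions was 65.0 to 83.5, that in synaptic genes with a gene-end peak 0.5 to 2.5, and that in the share of all genes 2.43 to 3.57 percentage points (exact permutation p = 0.2, the smallest then possible). Genes wholly higher in rank numbered 8 to 11 and wholly lower 8 to 12. Counts of WT-only regions or gene ends were 0 in all 23 alternatives run. Ranks at equal list length, chosen after seeing the data, gave 8 genes higher and 8 lower. For none of these alternative rank counts was the share over all ranked genes taken, so they are a description only.

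Same-numbered libraries share no stated source. Their deviations from the genotype means over 24370 regions correlated at 0.0171, 0.0569 and 0.000979, so the numbers were not taken as pairs. With the replicate number as a block, the share of all genes differed by 3.01 percentage points (exact sign-flip p = 0.25, the smallest that 3 pairs allow), and 10 synaptic genes were higher and 12 lower in every pair. The share of all ranked genes with such a pattern was not taken. Precision is limited by the unknown read depth: a missing peak does not show that a site is closed, since joint lists had peaks at all 23 SE/SE-only regions. At some of these, in Dnm1, Nlgn1 and Syt1, the joint WT peak also spanned a neighbouring region shared by all libraries.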
